A study of Mus musculus with 20 samples.

Results

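The mitosis genes described here are 58 mouse genes whose products build, move, check or divide the chromosomes of a dividing cell. They were taken by name from a list of symbols that was drawn up with earlier results of these data known, and the longest listed transcript stood for each symbol. All 58 were found among the 23992 gene symbols measured, and all 58 passed the filter on low counts in both experiments. In mitosis, cyclin-dependent kinase 1 and its cyclin partners drive the cell in, condensins pack the chromosomes, kinesins and other motors build the spindle, and the kinetochore ties each chromosome to it. The spindle assembly checkpoint holds the cell until every chromosome is attached, after which the anaphase-promoting complex marks cyclin B and securin for destruction and the sister chromatids part. Messages of these genes are made mostly in the G2 and M phases, so that in a population of T cells, which divide fast once activated, their level follows both the share of cells in those phases and the message per cell.

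The cells were CD8+ T cells taken by negative selection from spleens of wild-type mice (strain C57BL/6J by the labels) aged 6 to 8 weeks. Every group, unstimulated cells included, had been activated for 48 hours with plate-bound antibody to CD3 and soluble antibody to CD28 and rested overnight. For the next 24 hours they were given either murine IL-21, called mIL-21, or 21h10, a protein designed de novo to mimic it, or no cytokine (unstimulated). Experiment 1 used 100 pM and 1 nM of either protein, experiment 2 used 10 nM and 100 nM, and each had its own unstimulated cells. With duplicates in every group (n = 2) and 5 groups per experiment, there were 20 libraries. The labels do not say whether duplicates came from separate mice or cultures, so the p-values measure the spread between these libraries, which may be technical. Dose range and experiment changed together and cannot be told apart.

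The libraries of experiment 1 held 36824740 to 94070730 reads on genes, those of experiment 2 27072917 to 43300094. Cenpm had the lowest count of any member, and for it counting error is of the order of the spread between duplicates, so that its values are less precise than those of most members. The summed level of 5 CD8 T cell markers was 1560 to 2286 CPM (counts scaled by TMM to a common library size) in experiment 1 and 2085 to 2662 CPM in experiment 2. Summed markers of B, CD4 T, NK, dendritic and erythroid cells were at most 14.3 CPM in any library. Of the 5 myeloid markers, Itgam, which activated CD8 T cells can also express, made up nearly all of a rise from 0.713 to 0.927 CPM in unstimulated to 14.7 to 81.2 CPM in treated libraries of experiment 1 and from 3.19 to 3.44 CPM to 42.6 to 108 CPM in experiment 2. S100a8 and S100a9 were at 0 in every library, and Lyz2 and Csf1r reached at most 0.289 CPM. Whether the Itgam rise has a part in the results was not tested. Counts did not come with a statement on strand, and 9 members share at least 5% of their exonic bases with a gene on the other strand, so that their reads cannot be told from those of the partner. These are Kif20a, with 29.3% of its bases shared with Cdc23, Ube2c with 22.8% (Tnnc2), Kif4 with 15.1% (Pdzd11), Ncapg with 13.4% (Lcorl), Cdc25c with 12.7% (Gm3550), Ccna2 with 12.5% (Exosc9), Prc1 with 11.1% (Rccd1), Plk1 with 7.1% (Gm44985) and Nek2 with 6.6% (Gm38037).

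Many of the members share short runs of letters next to their start sites, the only stretches searched here. Many promoters of late cell cycle genes carry the letters TTTGAA or TTCGAA, known as the cell cycle genes homology region (CHR), which the DREAM complex binds in resting cells and B-Myb with MuvB in dividing cells, together with CCAAT boxes, bound by NF-Y. Promoter windows from RefSeq (GRCm38.p6), each from 250 bases before to 50 after a start site, were given for 49 of the 58 members (52 windows). The 9 members without a window were Ccna2, Cdc25c, Aurkb, Kif20a, Tpx2, Incenp, Spc24, Foxm1 and Smc4. The 3 stretches below belong to genes whose levels are given in every library further on, and they show 3 arrangements of these letters: a pair of TTTGAA copies downstream of CCAAT boxes (Mki67), both CHR spellings with many CCAAT boxes (Top2a) and a single copy of each close to the start (Kif11). They are the 129 bases of chr7:135716451-135716579 (minus strand), the 190 bases of chr11:99024200-99024389 (minus strand) and the 200 bases of chr19:37376182-37376381 (plus strand), printed 5′ to 3′ along the gene and ending before the most upstream start listed for it. Capitals mark TTTGAA or its reverse complement TTCAAA, as well as the palindrome TTCGAA and the box CCAAT or its reverse complement ATTGG.
Mki67: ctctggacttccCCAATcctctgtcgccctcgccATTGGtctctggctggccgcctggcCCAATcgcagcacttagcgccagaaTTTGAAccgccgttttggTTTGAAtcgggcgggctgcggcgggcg
Top2a: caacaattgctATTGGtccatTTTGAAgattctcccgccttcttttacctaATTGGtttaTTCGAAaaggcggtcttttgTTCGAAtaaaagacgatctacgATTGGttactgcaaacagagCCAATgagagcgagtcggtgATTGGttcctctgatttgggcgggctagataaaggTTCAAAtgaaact
Kif11: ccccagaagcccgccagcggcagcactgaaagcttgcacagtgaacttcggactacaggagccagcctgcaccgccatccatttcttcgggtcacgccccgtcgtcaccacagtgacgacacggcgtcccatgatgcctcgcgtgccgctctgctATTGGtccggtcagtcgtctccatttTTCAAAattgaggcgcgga
Distances are counted from the start on which the window was built, which in Mki67 and Top2a lies downstream of the end of the stretch printed above. In Mki67 the centres of the 2 TTTGAA copies lay 113 and 95 bases before the start. In Top2a, 1 copy lay 176 bases before the start and the other, on the opposite strand, 20 bases before it, with the 2 TTCGAA copies between them. The single copy of Kif11 lay 16 bases before the start and its CCAAT box 43 bases before. With both strands searched, TTTGAA was in 38 of the 52 member windows (73.1%) against 17.9% of all 32851 windows and 16.0% of those of protein-coding genes. TTCGAA, which reads the same on both strands, was in 9.62% of member windows and 1.56% of all. CCAAT was in 73.1% of member windows and 37.4% of all, and 48.1% of member windows held at least 2 copies, against 11.7% of all. Either CHR spelling together with CCAAT was in 67.3% of member windows and 7.52% of all. Of the 49 TTTGAA matches in member windows, 39 were centred between 100 bases before and 50 after the start. These are matches of letters, given as a description, and no binding was measured.

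Levels between genes are compared here as RPKM, which scales reads by transcript length and by the mapped reads of a library. In unstimulated cells of experiment 1 the highest mean level per length was that of Top2a, the topoisomerase that untangles sister chromatids, at 235 RPKM, followed by Ube2c at 175 RPKM, Smc4 at 156 RPKM and Mki67 at 129 RPKM. The lowest were Anln at 9.80 RPKM, Cenpm at 11.2 RPKM and Cdc25c at 11.3 RPKM. In unstimulated cells of experiment 2 the highest were again Top2a at 299 RPKM, Smc4 at 237 RPKM and Mki67 at 159 RPKM. The members took 1.27% of the reads on genes in both unstimulated libraries of experiment 1 and 0.879% to 0.99% in its 8 treated libraries. In experiment 2 they took 1.41% and 1.61% in the unstimulated libraries and 1.28% to 1.47% in the treated ones, and these ranges overlap.

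In experiment 1, mitosis genes were lower with either protein at either dose than in unstimulated cells. Past a Benjamini-Hochberg adjusted p of 0.05 in edgeR's quasi-likelihood test, 47 members were lower and 4 higher with mIL-21 at 100 pM, where 39.4% of all 13974 genes tested were lower and 38.3% higher. With 21h10 at 100 pM, 48 were lower and 4 higher (41.3% and 40.2% of all genes). With mIL-21 at 1 nM, 51 were lower and 4 higher (40.3% and 39.9% of all genes), and with 21h10 at 1 nM, 42 were lower and 4 higher (42.1% and 38.3% of all genes). The median log2 fold change over the 58 members was -0.54, -0.52, -0.54 and -0.41 in this order, while the median over all genes lay between -0.04 and 0. These 4 comparisons share the unstimulated libraries. In 40 members the level was lower in all 4 comparisons, Ccnb2, Cdc25b, Cenpa and Anln were higher in all 4, and Cdca3, Ube2c and Foxm1 passed the test in none. The share of all genes with each of these patterns was not counted, so these numbers describe the members alone. In bulk RNA, fewer cells in mitosis and less message per cell cannot be told apart. With offsets that also centre each library on GC content, a setting added after the data were seen, the split with 21h10 at 1 nM was 10 higher and 41 lower.

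In experiment 2, at the higher doses, fewer members passed the test against unstimulated cells, as did fewer of all genes. The spread within groups was larger there (biological coefficient of variation 8.80% against 4.32%), so that a difference of the same size was less likely to pass. With mIL-21 at 10 nM, 22 members were lower and 4 higher, where 23.7% of all 13772 genes tested were lower and 22.5% higher. With 21h10 at 10 nM, 23 were lower and 4 higher (24.9% and 25.2% of all genes). With mIL-21 at 100 nM, 16 were lower and 4 higher (23.7% and 22.5% of all genes), so that the share of members that were lower was close to that of all genes. With 21h10 at 100 nM, 14 were lower and 10 higher (25.8% and 25.0% of all genes). The median log2 fold changes were -0.15, -0.15, -0.07 and 0.01. In 12 members the level was lower in all 4 comparisons, Birc5, Prc1 and Racgap1 were higher in all 4 (Racgap1 with 21h10 at 100 nM turned lower, at -0.12, with library sizes from the mapped reads), and 22 members, Mki67, Top2a, Cdk1 and Plk1 among them, passed the test in none. For these patterns too the share of all genes was not counted. The balance between lower and higher members in this experiment depended on the scaling. With library sizes taken from the mapped reads in place of TMM, the median of all genes itself moved by -0.18 to -0.30, and the members lower and higher became 39 and 2 (10 nM) and 34 and 4 (100 nM) for mIL-21, and 43 and 2 (10 nM) and 38 and 2 (100 nM) for 21h10. Relative to the median of all genes under that scaling, the members' median was -0.14, -0.14, -0.06 and 0.02, close to the values under TMM. The duplicates of unstimulated cells in experiment 2 were further apart in these genes than those of experiment 1, and the second lay above the first by a median log2 difference of 0.11, against -0.02 in experiment 1. This gap moved with the GC content of the transcripts, with a Spearman's rho of -0.81 over the members and -0.57 over all genes, and its part in the differences from unstimulated cells was not tested beyond the GC-centred offsets. With those offsets the members lower and higher were 27 and 4 (10 nM) and 22 and 6 (100 nM) for mIL-21, and 30 and 5 (10 nM) and 21 and 12 (100 nM) for 21h10. Without the first unstimulated library, 19 members were lower and 4 higher with mIL-21 at 100 nM, and without the second, 16 and 12. The members called fell from 26 to 17 with mIL-21 at 10 nM without its second library, from 20 to 12 with mIL-21 at 100 nM without its second library, and from 24 to 14 with 21h10 at 100 nM without either of its libraries.

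**Figure D1:**
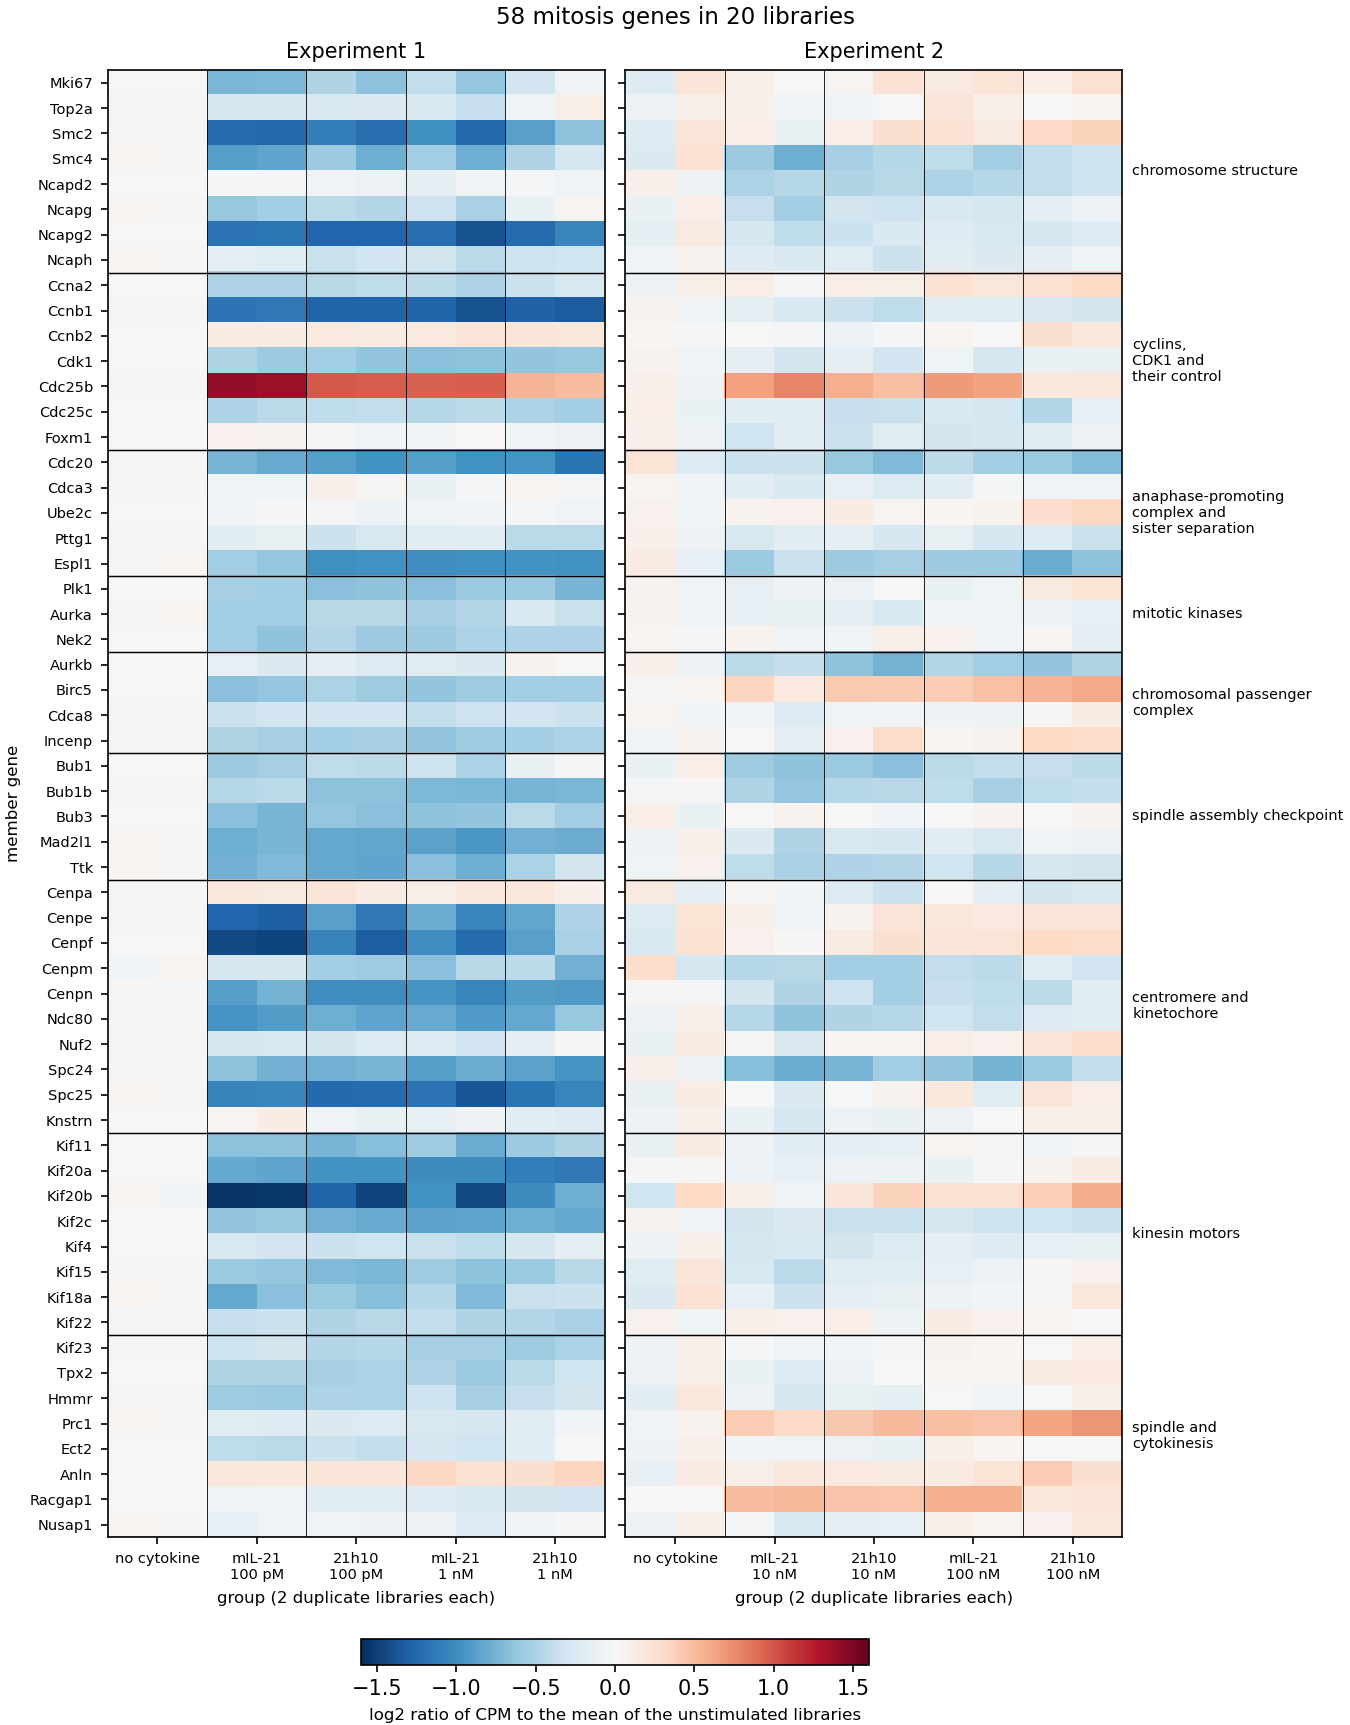
Log2 ratio of the CPM of each of the 58 mitosis genes (rows, grouped by role) to the mean of the unstimulated libraries of the same experiment, in each of the 20 libraries (columns, duplicates side by side). Blue rows fill the treated libraries of experiment 1, with Cdc25b the strongest red row, while in experiment 2 most rows are pale and Birc5, Prc1 and Racgap1 are red.

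Among the 8 members of chromosome structure, 7 were lower at 100 pM of either protein, and at 1 nM 8 were lower after mIL-21 and 5 after 21h10. Smc2, the ATPase subunit found in both condensins, stood at 338 and 331 CPM in the unstimulated duplicates, 141.7 and 139.8 (100 pM) and 169.9 and 140.95 (1 nM) after mIL-21, and 155 and 145 (100 pM) and 183 and 211 (1 nM) after 21h10 in experiment 1. All 8 treated libraries lay below both unstimulated libraries, with log2 fold changes of -1.25 to -0.76 (SE 0.073 to 0.0741, highest edgeR adjusted p 3.07e-08). Mki67, which encodes Ki-67, the protein that coats mitotic chromosomes and marks cycling cells, was at 1544 and 1522 CPM in the unstimulated duplicates, 926 and 932 (100 pM) and 1162 and 999.8 (1 nM) after mIL-21, and 1098 and 977 (100 pM) and 1244 and 1478 (1 nM) after 21h10. Its log2 fold changes were -0.72 to -0.17 (SE 0.0768 to 0.0773), and the smallest difference, with 21h10 at 1 nM, just passed the test (adjusted p = 0.0497 in edgeR) and lost the call with DESeq2 (-0.13) and without the first library of that group (-0.051). Top2a was at 1473 and 1429 CPM in the unstimulated duplicates, 1192 and 1196 (100 pM) and 1228 and 1126 (1 nM) after mIL-21, and 1221 and 1234 (100 pM) and 1379.9 and 1549 (1 nM) after 21h10. It fell in 3 of the 4 groups, by a log2 fold change of -0.30 (SE 0.0564, edgeR adjusted p = 9.84e-05) with mIL-21 at 1 nM, while the 2 libraries with 21h10 at 1 nM lay on either side of the unstimulated ones. Ncapg2, a subunit of condensin II, fell in all 4, with log2 fold changes of -1.29 to -1.13.

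In experiment 2, Smc2 was at 292 and 386 CPM in the unstimulated duplicates, 361 and 310.0 (10 nM) and 393 and 371 (100 nM) after mIL-21, and 362 and 399.7 (10 nM) and 416 and 432 (100 nM) after 21h10. The range of the unstimulated duplicates held 4 of the 8 treated values, and of the 4 comparisons that with 21h10 at 100 nM passed the test (log2 fold change 0.32, SE 0.113, edgeR adjusted p = 0.0262). It lost that call without the first unstimulated library (0.13) and with library sizes from the mapped reads (0.027). Mki67 was at 1672 and 2212 CPM in the unstimulated duplicates, 2049.5 and 1936 (10 nM) and 2120.3 and 2230.3 (100 nM) after mIL-21, and 1987 and 2255 (10 nM) and 2067 and 2271 (100 nM) after 21h10, and Top2a at 1756 and 2016 CPM in the unstimulated duplicates, 1985 and 1827 (10 nM) and 2150.5 and 2004 (100 nM) after mIL-21, and 1810.0 and 1880.4 (10 nM) and 1892 and 1937 (100 nM) after 21h10. For both genes the treated values lay within or close to the range of the unstimulated duplicates, and no comparison passed the test. The condensin subunits Ncapg2, Smc4 and Ncapd2 were lower in all 4 comparisons of experiment 2, and each of the 4 calls of Ncapg2 was lost without the second unstimulated library (-0.20 to -0.094). Ncapd2, a subunit of condensin I, showed its larger differences there, with log2 fold changes of -0.48 to -0.36 (SE 0.0782 to 0.0782, highest edgeR adjusted p 0.00122), while in experiment 1 it passed the test with mIL-21 at 1 nM alone (-0.10).

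Of the 7 cyclins, CDK1 and their regulators, 4 were lower and 2 higher in each comparison of experiment 1. Ccnb1, which encodes cyclin B1, the partner of CDK1 at mitotic entry, was at 298 and 292 CPM in the unstimulated duplicates, 130.0 and 133 (100 pM) and 122 and 112 (1 nM) after mIL-21, and 121 and 121 (100 pM) and 121 and 117 (1 nM) after 21h10. No treated library exceeded 133 CPM, far under both unstimulated ones, and the log2 fold changes were -1.34 to -1.17 (SE 0.0479 to 0.0485, highest edgeR adjusted p 3.57e-13). Cdk1 itself was at 166 and 164 CPM in the unstimulated duplicates, 118 and 111 (100 pM) and 103 and 105 (1 nM) after mIL-21, and 112 and 106 (100 pM) and 107 and 108 (1 nM) after 21h10. Its differences on the log2 scale were -0.67 to -0.53 (SE 0.0472 to 0.0479, highest edgeR adjusted p 1.39e-08). Ccnb2, the other B-type cyclin, went the other way by a small amount, with log2 fold changes of 0.12 to 0.19 (SE 0.0432 to 0.0436). Foxm1, a transcription factor that drives many G2 and M genes, was at 105 and 106 CPM in the unstimulated duplicates, 111 and 109.7 (100 pM) and 102 and 107 (1 nM) after mIL-21, and 103 and 101 (100 pM) and 101 and 99.3 (1 nM) after 21h10. It passed the test in no comparison.

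Cdc25b, a phosphatase that activates CDK1, was the member with the largest rise in experiment 1 and the opposite of most others. It was at 92.4 and 90.0 CPM in the unstimulated duplicates, 241 and 238 (100 pM) and 175 and 177 (1 nM) after mIL-21, and 179.5 and 179 (100 pM) and 133 and 129 (1 nM) after 21h10. The groups did not overlap, and the rise was largest with mIL-21 at 100 pM (log2 fold change 1.39, SE 0.0439) and smallest with 21h10 at 1 nM (0.52, SE 0.0439, edgeR adjusted p = 5.34e-09). In experiment 2 it was at 169 and 152 CPM in the unstimulated duplicates, 253 and 276 (10 nM) and 257 and 250.3 (100 nM) after mIL-21, and 239.8 and 223 (10 nM) and 179 and 181 (100 nM) after 21h10, again highest with mIL-21. There it passed the test in 3 comparisons, with log2 fold changes of 0.53 to 0.72, and with 21h10 at 100 nM it did not. Its most-read transcript was not the longest one, and using the most-read transcript left these calls and directions as they were.

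In experiment 2, Ccnb1 was at 187 and 173 CPM in the unstimulated duplicates, 162 and 151 (10 nM) and 161 and 157 (100 nM) after mIL-21, and 141.9 and 136.04 (10 nM) and 154 and 146 (100 nM) after 21h10. Treated libraries lay below both unstimulated ones, but the differences were smaller than in experiment 1, with log2 fold changes of -0.37 to -0.18, and passed the test in 3 of 4 comparisons. Cdk1 was at 130.4 and 121 CPM in the unstimulated duplicates, 114 and 102 (10 nM) and 119 and 104 (100 nM) after mIL-21, and 113 and 102 (10 nM) and 117 and 115 (100 nM) after 21h10. It passed the test in no comparison. Foxm1 was at 132 and 118 CPM in the unstimulated duplicates, 100.3 and 110.2 (10 nM) and 102 and 104 (100 nM) after mIL-21, and 98.8 and 109 (10 nM) and 111 and 117 (100 nM) after 21h10, lower with mIL-21 at 10 nM, 21h10 at 10 nM and mIL-21 at 100 nM by log2 fold changes of -0.28 to -0.25. None of these Foxm1 calls was kept under every alternative.

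The 3 mitotic kinases Plk1, Aurka and Nek2 were lower in all 4 comparisons of experiment 1. Plk1, polo-like kinase 1, which acts from mitotic entry to cytokinesis, was at 139.2 and 140.5 CPM in the unstimulated duplicates, 96.6 and 95.8 (100 pM) and 88.0 and 92.5 (1 nM) after mIL-21, and 87.6 and 89.5 (100 pM) and 92.7 and 83.6 (1 nM) after 21h10 in experiment 1. On the log2 scale it differed by -0.67 to -0.54 (SE 0.0514 to 0.0522, highest edgeR adjusted p 3.4e-08). In experiment 2 it was at 136.2 and 126 CPM in the unstimulated duplicates, 119.7 and 124 (10 nM) and 122 and 125 (100 nM) after mIL-21, and 123 and 132 (10 nM) and 145 and 153 (100 nM) after 21h10, where only the libraries with 21h10 at 100 nM lay above both unstimulated ones and no comparison with unstimulated cells passed the test.

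The chromosomal passenger complex corrects faulty attachments, and its 4 members were measured. All 4 were lower in experiment 1 except Aurkb with 21h10 at 1 nM. Birc5, which encodes survivin, the subunit that brings the complex to chromosomes, was at 194 and 194 CPM in the unstimulated duplicates, 122 and 126 (100 pM) and 125 and 131 (1 nM) after mIL-21, and 136.8 and 131 (100 pM) and 133 and 133 (1 nM) after 21h10. Against unstimulated cells its log2 fold changes were -0.65 to -0.54 (SE 0.0451 to 0.0456, highest edgeR adjusted p 4.83e-09). In experiment 2 it was at 186 and 194 CPM in the unstimulated duplicates, 241 and 211 (10 nM) and 253 and 264 (100 nM) after mIL-21, and 253 and 254 (10 nM) and 276 and 289.8 (100 nM) after 21h10. There every treated library lay above both unstimulated ones, and it rose in all 4 comparisons, with log2 fold changes of 0.25 to 0.57 (SE 0.0818 to 0.0821, highest edgeR adjusted p 0.0195). With library sizes from the mapped reads the calls at 10 nM were lost (0.071 with mIL-21 and 0.15 with 21h10), and without the first unstimulated library that with mIL-21 at 10 nM was lost (0.22). Aurkb, the kinase of the complex, was at 145 and 145 CPM in the unstimulated duplicates, 133 and 124 (100 pM) and 127 and 124 (1 nM) after mIL-21, and 130.1 and 124 (100 pM) and 151 and 145 (1 nM) after 21h10 in experiment 1 and at 145 and 129.9 CPM in the unstimulated duplicates, 101 and 105 (10 nM) and 99.2 and 93.3 (100 nM) after mIL-21, and 87.4 and 81.0 (10 nM) and 88.9 and 98.3 (100 nM) after 21h10 in experiment 2. Its log2 fold changes were -0.21 to 0.03 in experiment 1, and in experiment 2, where no treated library reached the unstimulated ones, they were -0.71 to -0.41 (SE 0.0872 to 0.0881, highest edgeR adjusted p 0.00113). The kinase and the survivin subunit of 1 complex therefore moved in opposite directions in experiment 2.

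All 5 members of the spindle assembly checkpoint were lower in 3 of the 4 comparisons of experiment 1, and all but Bub1 with 21h10 at 1 nM. Bub1, a checkpoint kinase at the kinetochore, was at 169 and 169 CPM in the unstimulated duplicates, 113 and 118 (100 pM) and 134.3 and 119 (1 nM) after mIL-21, and 127 and 127 (100 pM) and 157 and 165 (1 nM) after 21h10 in experiment 1. With 21h10 at 1 nM its libraries came close to the unstimulated ones, and elsewhere the log2 fold changes were -0.55, -0.41 and -0.42. In experiment 2 it was at 157 and 181 CPM in the unstimulated duplicates, 114 and 108 (10 nM) and 125 and 128 (100 nM) after mIL-21, and 111 and 106 (10 nM) and 131 and 126 (100 nM) after 21h10, lower in all 4 comparisons by log2 fold changes of -0.63 to -0.39 (SE 0.0846 to 0.0851, highest edgeR adjusted p 0.00125). Bub1b and Ttk, which encode BubR1 and the kinase MPS1, were likewise lower in all 4 comparisons of experiment 2, whereas Bub3, with log2 fold changes of -0.02 to 0.032, passed the test in none.

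At the centromere and kinetochore, 8 or 9 of the 10 members were lower in each comparison of experiment 1, and only Cenpa, the histone H3 variant of centromeres, was higher. Ndc80, which binds microtubules at the kinetochore, was at 123 and 119.7 CPM in the unstimulated duplicates, 62.9 and 65.4 (100 pM) and 69.5 and 64.5 (1 nM) after mIL-21, and 70.4 and 67.8 (100 pM) and 68.8 and 79.8 (1 nM) after 21h10 in experiment 1. The 4 log2 fold changes were -0.92 to -0.70 (SE 0.0611 to 0.0624, highest edgeR adjusted p 8.85e-09). In experiment 2 it was at 127 and 145 CPM in the unstimulated duplicates, 99.5 and 87.5 (10 nM) and 109.6 and 104 (100 nM) after mIL-21, and 97.6 and 98.9 (10 nM) and 118 and 120.1 (100 nM) after 21h10, lower in 3 of 4 comparisons, with 21h10 at 100 nM the exception (-0.20, SE 0.0892). Cenpf and Cenpe, large proteins of the outer kinetochore, fell in experiment 1, with log2 fold changes of -1.46 to -0.68 and -1.29 to -0.65, and passed no test in experiment 2. Spc25 fell by -1.28 to -1.06 on the log2 scale in experiment 1 and passed none in experiment 2, while Spc24, which is its partner in the same complex, was lower in all 8 comparisons (-0.90 to -0.71 and -0.74 to -0.49).

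All 8 kinesins were lower in all 4 comparisons of experiment 1. Kif11, the motor that pushes the spindle poles apart, was at 419 and 417 CPM in the unstimulated duplicates, 265 and 266 (100 pM) and 282 and 241 (1 nM) after mIL-21, and 249 and 262 (100 pM) and 280.1 and 299 (1 nM) after 21h10. As log2 fold changes these were -0.71 to -0.53 (SE 0.0601 to 0.0604, highest edgeR adjusted p 2.7e-07). Kif20b, a kinesin of late mitosis and cytokinesis, was at 169.9 and 160.4 CPM in the unstimulated duplicates, 55.6 and 56.5 (100 pM) and 84.5 and 60.7 (1 nM) after mIL-21, and 67.8 and 58.9 (100 pM) and 82.2 and 95.7 (1 nM) after 21h10. It had the largest fall of any member, a log2 fold change of -1.56 (SE 0.108, edgeR adjusted p = 3.74e-10) with mIL-21 at 100 pM. In experiment 2 Kif11 was at 418 and 494 CPM in the unstimulated duplicates, 428 and 405 (10 nM) and 466 and 449 (100 nM) after mIL-21, and 407 and 416 (10 nM) and 437 and 449 (100 nM) after 21h10, and neither it nor Kif20a, Kif18a or Kif22 passed the test in any comparison. Kif2c, which takes microtubules apart, was lower in all 4 comparisons there (-0.36 to -0.26).

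Of the 8 members that act on the spindle and in cytokinesis, 5, 6, 7 and 4 were lower in experiment 1 with mIL-21 at 100 pM, 21h10 at 100 pM, mIL-21 at 1 nM and 21h10 at 1 nM, and Anln, which encodes the scaffold anillin, was higher in all 4 (0.18 to 0.30). Tpx2, which activates Aurora A and nucleates microtubules, was at 315 and 313 CPM in the unstimulated duplicates, 225 and 226 (100 pM) and 223 and 207.7 (1 nM) after mIL-21, and 218 and 222 (100 pM) and 234 and 251 (1 nM) after 21h10. The log2 fold changes against unstimulated cells were -0.55 to -0.37 (SE 0.0481 to 0.0485, highest edgeR adjusted p 1.51e-06). In experiment 2 Tpx2 was at 312 and 354 CPM in the unstimulated duplicates, 309.5 and 285 (10 nM) and 338 and 338 (100 nM) after mIL-21, and 312 and 330.2 (10 nM) and 363 and 369 (100 nM) after 21h10. It passed the test in no comparison. Prc1 and Racgap1, both of the central spindle, rose in all 4 comparisons of experiment 2. Prc1 was at 173 and 187 CPM in the unstimulated duplicates, 238 and 223 (10 nM) and 252 and 247 (100 nM) after mIL-21, and 242 and 258 (10 nM) and 279.5 and 293 (100 nM) after 21h10. Its differences on the log2 scale were 0.35 to 0.67 (SE 0.0788 to 0.0791, highest edgeR adjusted p 0.00167). Racgap1 was at 275 and 275 CPM in the unstimulated duplicates, 387 and 394 (10 nM) and 407 and 407 (100 nM) after mIL-21, and 377 and 374 (10 nM) and 309 and 314 (100 nM) after 21h10. On the log2 scale it differed by 0.18 to 0.57 (SE 0.0712 to 0.0713, highest edgeR adjusted p 0.0433). In neither gene did a treated library of experiment 2 reach down to the unstimulated ones. The smallest of these differences, Racgap1 with 21h10 at 100 nM, lost its call without any 1 of the 10 libraries and turned to -0.12 with library sizes from the mapped reads, where Prc1 with mIL-21 at 10 nM also lost its call (0.18).

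Around the anaphase-promoting complex, 3 of 5 members were lower in each comparison of experiment 1. Cdc20, its activator, and Espl1, which encodes separase, the protease that parts the sister chromatids, were lower in all 8 comparisons, with log2 fold changes of -1.05 to -0.78 and -0.99 to -0.59 in experiment 1 and -0.67 to -0.37 and -0.73 to -0.47 in experiment 2. Cdc20 with mIL-21 at 10 nM lost its call without the first unstimulated library (-0.14). Ube2c, the ubiquitin-conjugating enzyme of the complex, was at 194 and 191.7 CPM in the unstimulated duplicates, 187 and 189.9 (100 pM) and 183 and 188 (1 nM) after mIL-21, and 188 and 182 (100 pM) and 188 and 185 (1 nM) after 21h10 in experiment 1 and passed no test. In experiment 2 it was at 161 and 146 CPM in the unstimulated duplicates, 159 and 161 (10 nM) and 157 and 159.9 (100 nM) after mIL-21, and 167 and 158 (10 nM) and 185 and 193.4 (100 nM) after 21h10 and rose with 21h10 at 100 nM (log2 fold change 0.30, SE 0.0788, edgeR adjusted p = 0.00481), a difference that was gone with library sizes from the mapped reads (-0.00093).

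**Figure D2:**
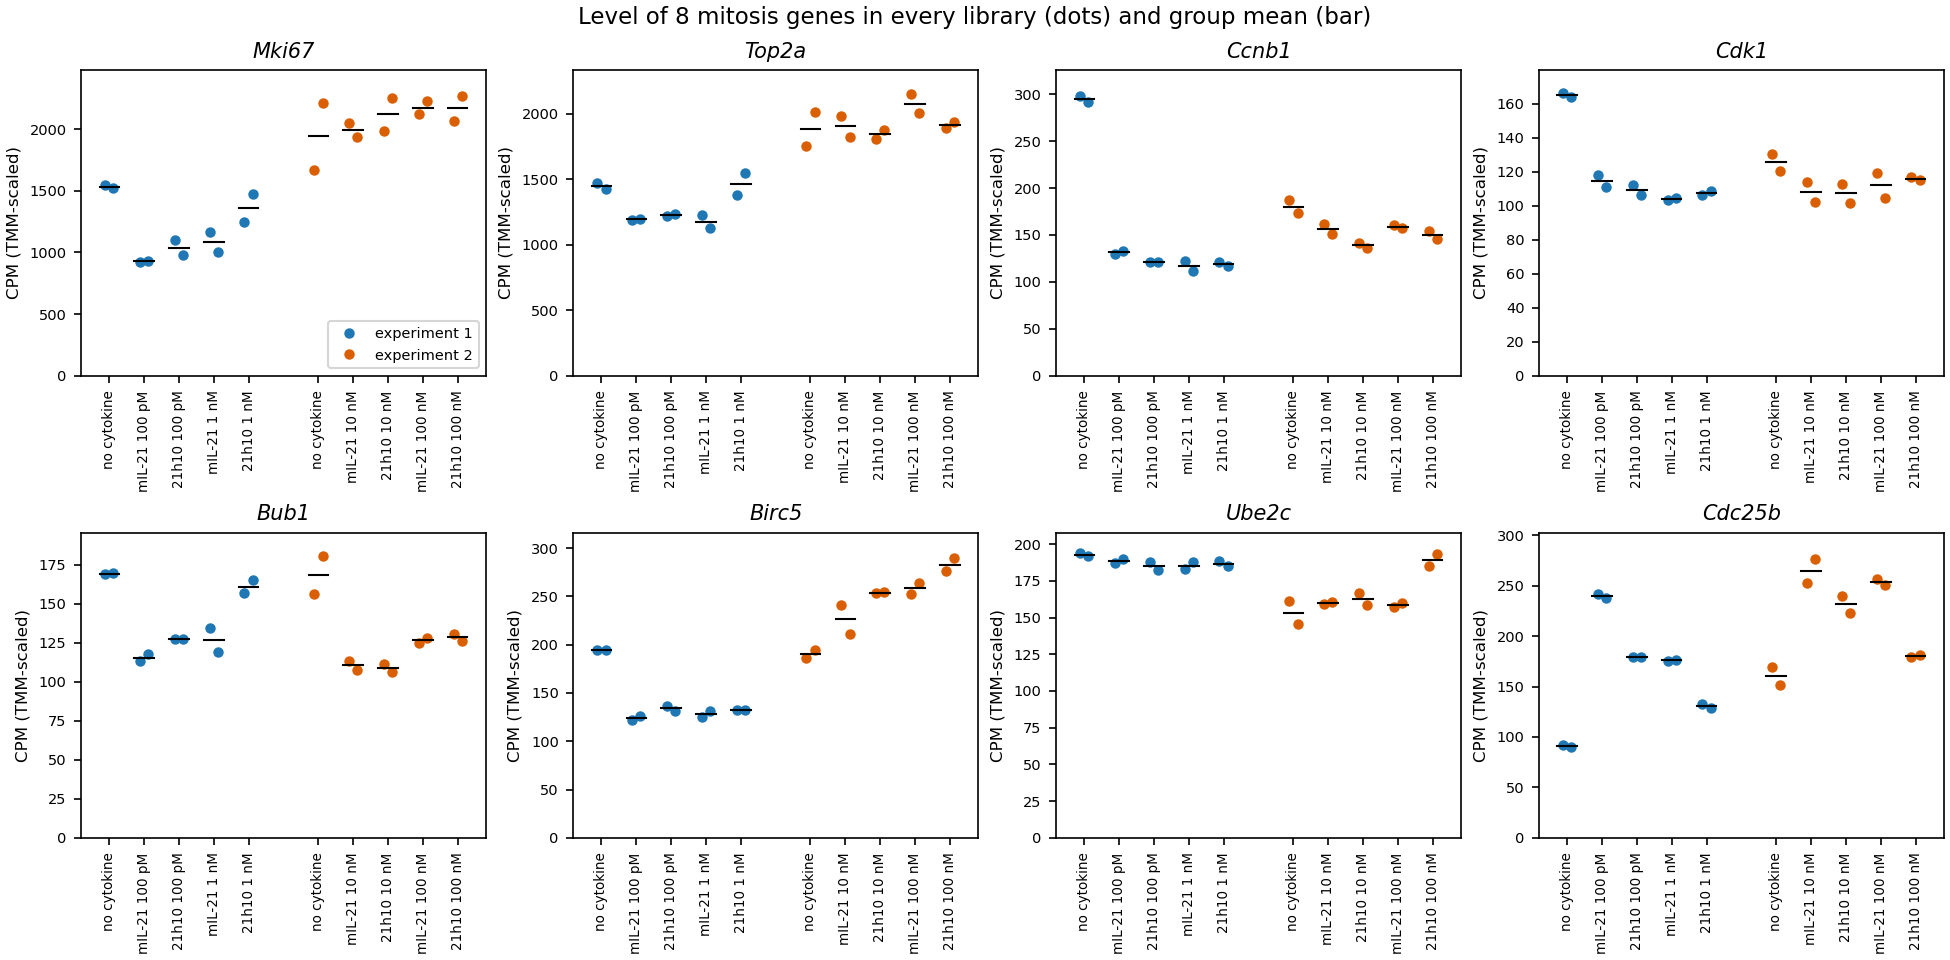
CPM of 8 mitosis genes in every library (dots, both duplicates of a group side by side) with the group mean (bar), experiment 1 in blue and experiment 2 in orange, each axis from 0. Ccnb1 and Cdk1 sit below the unstimulated cells in all treated groups of experiment 1, Birc5 sits below in experiment 1 and above in experiment 2, and Cdc25b sits above except where 21h10 at 100 nM comes close.

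The 2 proteins were compared at matched doses, 19 comparisons being fitted in all, each with p-values adjusted over all genes. At 100 pM in experiment 1, 11 members were lower and 3 higher with 21h10 than with mIL-21, where 19.0% of all genes tested were lower and 19.6% higher. The share of members that were lower was thus close to that of all genes, and the share that were higher was smaller. The members' median was -0.03 against -0.01 over all genes. Cdc25b was at 241 and 238 CPM with mIL-21 and 179.5 and 179 CPM with 21h10 (log2 fold change -0.42, SE 0.0428, edgeR adjusted p = 6.96e-07). Espl1 was at 79.2 and 75.5 CPM and 58.9 and 59.5 CPM (-0.39, SE 0.0488), and Cenpm, also lower (-0.28), had the third largest fall. The 3 that were higher were Cenpe (0.29), Cenpf (0.27) and Bub1 (0.14). Of these 14, Cdc25b, Espl1 and Bub1b kept call and direction under every alternative tried. The split depended on the setting. It was 24 lower and 0 higher with library sizes from the mapped reads, a scaling that moved the median of all genes by -0.10, and 10 lower and 0 higher with DESeq2, but 20 lower and 8 higher with GC-centred offsets and 19 lower and 13 higher in a fit of the compared groups alone. Leaving out the first or second library gave 5 or 6 members with 21h10 at 100 pM, 6 or 3 with mIL-21 at 100 pM and 25 either way with 21h10 at 1 nM, which enters through the shared estimate of spread.

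At 1 nM in experiment 1 more members were higher than lower. With 21h10, 21 members were higher and 2 lower than with mIL-21, where 19.6% of all genes were higher and 18.1% lower, and the members' median was 0.08 against -0.01 over all genes. Chromosome structure had 5 of its 8 members higher, the spindle and cytokinesis group 4 of 8, the checkpoint 3 of 5, the kinesins 3 of 8 and the kinetochore 3 of 10. Cenpf was at 151 and 128 CPM with mIL-21 and 165 and 209.6 CPM with 21h10, and had the largest log2 fold change, 0.43 (SE 0.0952, edgeR adjusted p = 0.00179). Ncapg, a condensin I subunit, followed with 0.40 (SE 0.0615) and Smc2 with 0.35 (SE 0.074). Bub1 (0.35), Mki67 (0.33), Top2a (0.32), Aurkb (0.24) and Tpx2 (0.17) were also higher, and in all 5 both libraries with 21h10 lay above both with mIL-21. The 2 that were lower were Cdc25b (-0.43, SE 0.0437) and Pttg1, which encodes securin, the inhibitor of separase (-0.26, SE 0.0656). Ccnb1, Cdk1, Plk1, Birc5, Foxm1, Ube2c, Kif11 and Ndc80 passed no test between the proteins at this dose, with log2 fold changes from -0.059 to 0.15. Under every alternative tried, 10 of the 23 members kept call and direction, among them Mki67, Top2a, Smc2, Bub1, Aurkb and Cdc25b. The count was 12 higher and 2 lower with library sizes from the mapped reads, 9 and 2 with limma, and 11 and 2 in a fit of the compared groups alone. Without the second library with 21h10 at 1 nM it was 10 higher and 2 lower, and without the second with mIL-21 at 1 nM it was 11 higher and 2 lower.

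The GC content of the transcripts moved with this difference. Over the 58 members, whose GC content ran from 38.3% to 56.1%, Spearman's rho between GC content and the log2 fold change at 1 nM was -0.64, against -0.17 over the 13884 genes tested that have a GC value. The genes were measured in the same 4 libraries and are not independent. Between the duplicates themselves, the second minus the first, rho over the members at 1 nM was 0.75 for mIL-21 and -0.74 for 21h10, and it was 0.61 for unstimulated cells of experiment 1. With each library centred on GC content, 29 members were higher and 2 lower at 1 nM, and rho was -0.32.

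**Figure D3:**
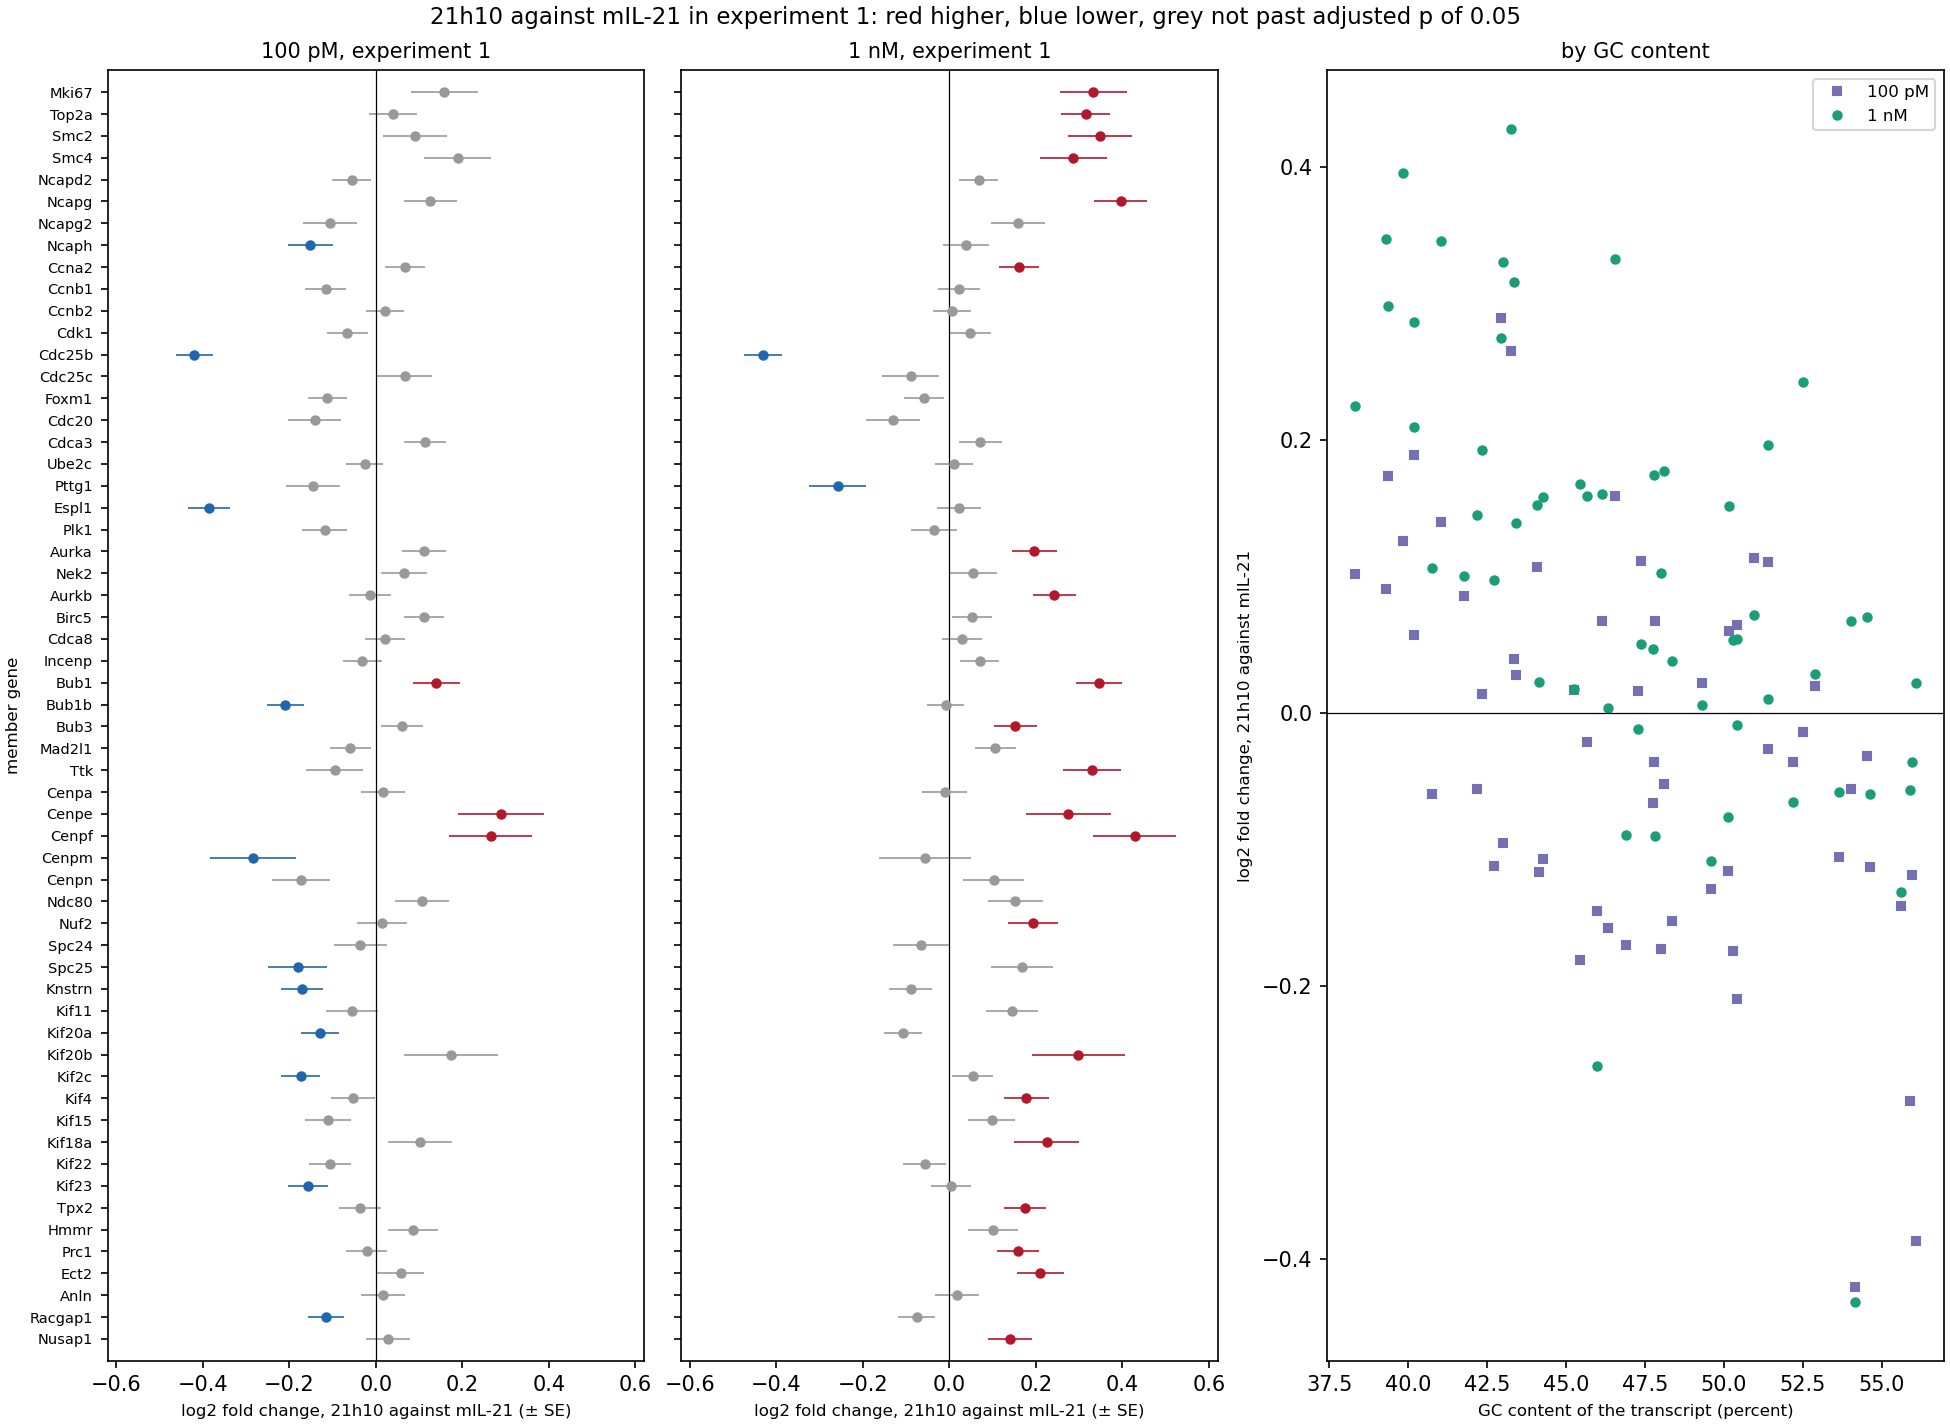
Log2 fold change of each mitosis gene with 21h10 against mIL-21 in experiment 1, with its standard error as the bar, at 100 pM (left) and 1 nM (middle), and the same values against transcript GC content in percent (right). At 100 pM 11 genes are blue (lower) and 3 red (higher), at 1 nM 21 are red and 2 blue, and at both doses the genes of low GC content lie higher.

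Whether the effect of 21h10 against mIL-21 differed between the doses was tested directly in experiment 1. It did for 11 members, all with a larger value at 1 nM, where 8.34% of all genes had a larger and 10.0% a smaller value. The largest were Ttk (log2 difference 0.43, SE 0.0943, edgeR adjusted p = 0.00421), Espl1 (0.41, SE 0.0703) and Spc25 (0.35, SE 0.0998). Top2a (0.28), Ncapg (0.27), Ncapg2 (0.26), Aurkb (0.26), Kif4 (0.23), Kif2c (0.23), Tpx2 (0.21) and Bub1b (0.20) made up the rest. The number rested on single libraries. Leaving out the first or second library gave 3 or 2 members for 21h10 and 2 or 3 for mIL-21 (100 pM), 21 or 6 for 21h10 and 21 or 4 for mIL-21 (1 nM) and 6 either way for unstimulated cells, and Ttk and Espl1 kept call and direction throughout.

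The step in dose from 100 pM to 1 nM was also compared within each protein. With 21h10, 21 members were higher and 3 lower at 1 nM (20.1% and 19.1% of all genes), led by Cenpf (0.51), Kif20b (0.50) and Ttk (0.44), while Cdc25b (-0.46), Kif20a (-0.17) and Racgap1 (-0.12) were lower. With mIL-21, 4 were higher and 12 lower (17.9% and 16.6% of all genes), with Kif20b (0.37), Cenpe (0.37) and Cenpf (0.35) the leading rises and Cdc25b (-0.45), Espl1 (-0.40) and Bub1b (-0.29) the leading falls. The share of members that were lower with mIL-21 was not far above that of all genes, and the share that were higher was smaller. The members' median was 0.05 for the step with 21h10 and -0.03 for that with mIL-21. With library sizes from the mapped reads the splits were 13 higher and 6 lower with 21h10 and 3 higher and 27 lower with mIL-21, where that scaling moved the median of all genes by -0.06 and -0.12. Cdc25b kept its call and direction with both proteins under every alternative. Cenpf and Kif20b kept theirs with 21h10, but with mIL-21 both lost the call with DESeq2, with limma, without either library at 100 pM and without the first at 1 nM (0.23 and 0.12), where Kif20b was at 84.5 CPM in the first library and 60.7 CPM in the second. Without the second library of either dose of 21h10 its count was 15 members, and without either library of mIL-21 at 100 pM the count for mIL-21 was 8, against 26 without either library of 21h10 at 1 nM. When 21h10 at 100 pM was set against mIL-21 at 1 nM, a 10-fold lower dose against the higher, 0 members passed edgeR's test, where 0.737% of all genes did. At an unadjusted p under 0.05 in edgeR there was 1 member, against 1400 of the 13974 genes tested. DESeq2 and limma also called 0 members, and the log2 fold changes ran from -0.20 to 0.11. Without the second library with mIL-21 at 1 nM edgeR called 1.

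In experiment 2 the 2 proteins were set against each other at 10 nM and 100 nM. At 10 nM, 0 members passed edgeR's test (0.00726% of all genes did), and 0 were called by DESeq2 and by limma. At an unadjusted p under 0.05 in edgeR there were 6 members, against 1207 of the 13772 genes tested. The log2 fold changes ran from -0.30 to 0.26. At 100 nM, 1 member was higher and 2 lower with 21h10 (4.02% and 4.52% of all genes). Plk1 was at 122 and 125 CPM with mIL-21 and 145 and 153 CPM with 21h10 (log2 fold change 0.27, SE 0.0799, edgeR adjusted p = 0.0478). Cdc25b was at 257 and 250.3 CPM and 179 and 181 CPM (-0.49, SE 0.0829, edgeR adjusted p = 0.00146), and Racgap1 at 407 and 407 CPM and 309 and 314 CPM (-0.38, SE 0.0713, edgeR adjusted p = 0.0031). The split was 6 higher and 2 lower in a fit of the compared groups alone, 4 and 2 with GC-centred offsets and 0 and 2 with library sizes from the mapped reads. Plk1 lost its call with library sizes from the mapped reads, without the low-count filter and without any 1 of the 8 treated libraries, and Cdc25b and Racgap1 kept theirs under every alternative. From 10 nM to 100 nM, 0 members passed edgeR's test with mIL-21, as did 0% of all genes, and 0 were called by DESeq2 and by limma. At an unadjusted p under 0.05 in edgeR there were 5 members, against 361 of the 13772 genes tested. With 21h10, Cdc25b (-0.36, SE 0.0829) and Racgap1 (-0.27, SE 0.0713) were lower at 100 nM and 0 members were higher (3.45% and 1.88% of all genes), calls that were lost without any 1 of the 4 libraries compared. The members' median for that step was 0.13, with 15 members at an unadjusted p under 0.05 in edgeR, against 2635 of the 13772 genes tested. The split was 14 higher and 2 lower in a fit of the compared groups alone, 7 and 2 with GC-centred offsets and 2 and 2 with DESeq2. Without either library of mIL-21 at 100 nM 1 member was called and without either unstimulated library 9 were, and in the comparison of the proteins at 100 nM 5 were without either unstimulated library. Cdc25b was therefore lower with 21h10 than with mIL-21 at 100 pM, 1 nM and 100 nM.

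The response to cytokine, averaged over the 4 treated groups of an experiment and set against its own unstimulated cells, was compared between the experiments in a fit of all 20 libraries. In 35 members it was higher in experiment 2 than in experiment 1 and in 8 lower, where 31.2% of all 14530 genes tested were higher and 33.5% lower. The largest differences were those of Kif20b (log2 difference 1.42, SE 0.168, edgeR adjusted p = 1.88e-07), Cenpf (1.21, SE 0.138) and Smc2 (1.17, SE 0.121), genes that fell in experiment 1 and not in experiment 2. Cdc25b (-0.50), Aurkb (-0.47) and Ncapd2 (-0.45) had the largest differences the other way. Birc5 (0.94), Prc1 (0.63) and Racgap1 (0.56) were among the 7 members that were lower in at least 1 comparison of experiment 1 and higher in at least 1 of experiment 2. Cdc20, Bub1b, Ttk, Cenpn, Kif2c, Spc24, Espl1, Smc4 and Ncapg2 were lower in all 8 comparisons. How many of all genes followed this pattern, or that of the 7, was not counted. In experiment 2, Bub1b, Spc24 and Espl1 kept all 4 calls under every alternative, Cdc20, Ttk, Kif2c and Smc4 kept 2 or 3, and Cenpn and Ncapg2 kept none.

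**Figure D4:**
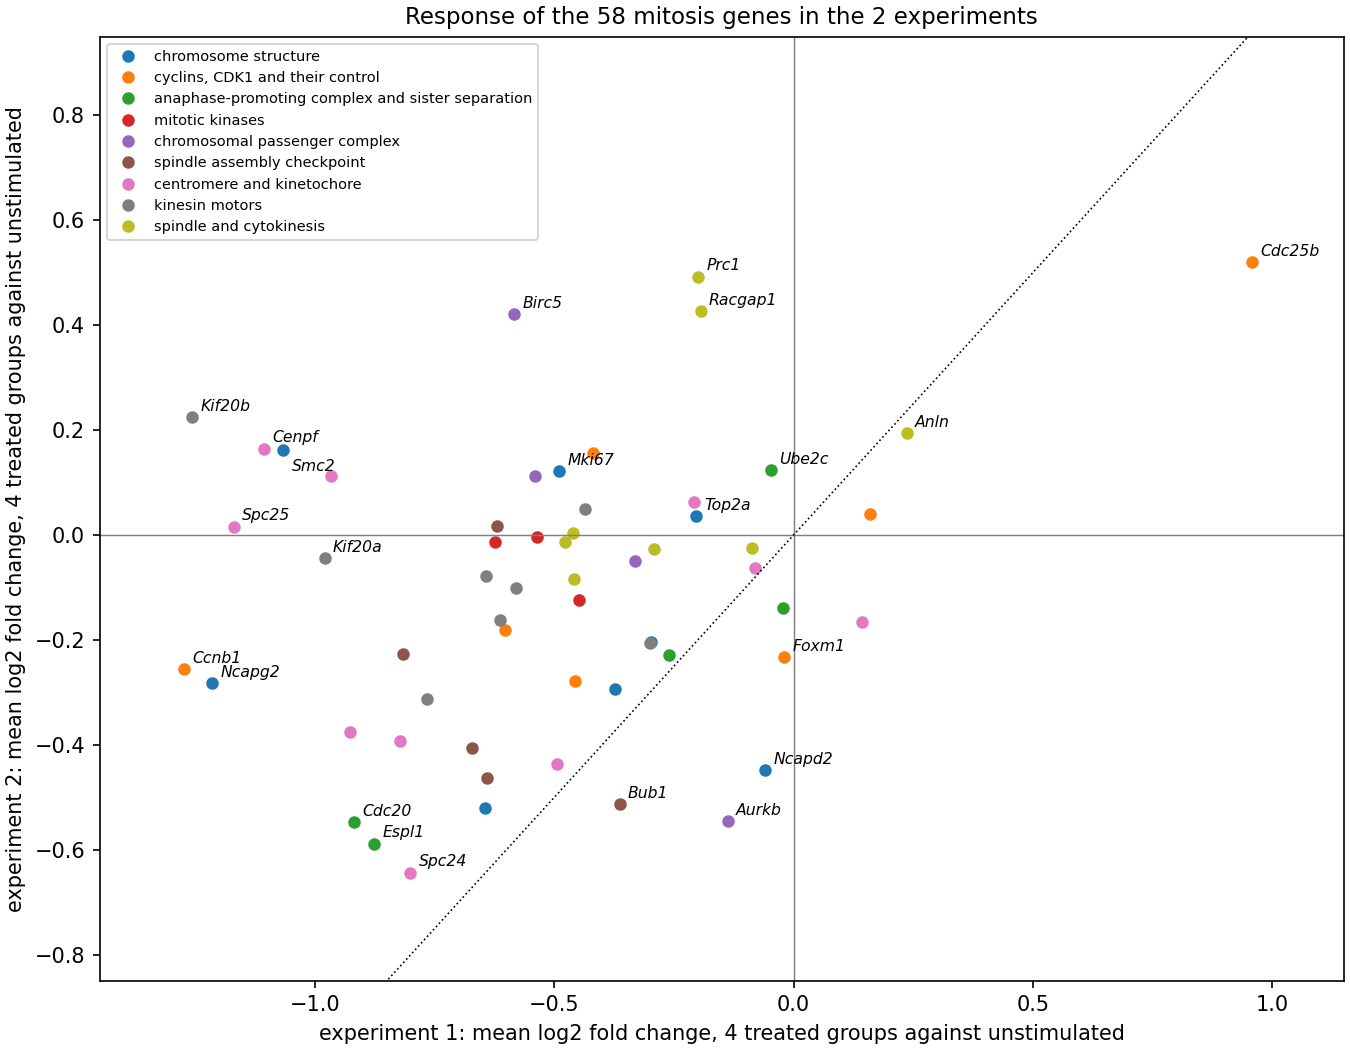
Mean log2 fold change of each mitosis gene over the 4 treated groups against unstimulated cells in experiment 1 (horizontal) and experiment 2 (vertical), coloured by role, with the dotted line at equal values. Most genes lie left of 0 and above the dotted line, Birc5, Prc1 and Racgap1 lie in the upper left, and Cdc25b stands alone at the right.

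Other cell cycle genes, from lists that hold no member, were counted in the same comparisons. Against unstimulated cells, 38.3% to 40.2% of all genes were higher and 39.4% to 42.1% lower in experiment 1. In experiment 2, 22.5% to 25.2% of all genes were higher and 23.7% to 25.8% lower. Of 56 further mitotic genes, such as kinetochore and spindle proteins outside the 58, 46, 47, 46 and 43 were lower and 5, 3, 3 and 5 higher in experiment 1 with mIL-21 at 100 pM, 21h10 at 100 pM, mIL-21 at 1 nM and 21h10 at 1 nM, with medians of -0.45, -0.51, -0.53 and -0.49. Of 38 genes of the G1/S step and DNA replication, 36 were lower and 1, E2f2, which encodes an E2F transcription factor, higher in each of the 4 comparisons. Their median, between -1.23 and -1.10, was further below 0 than that of the members. Fen1, which trims Okazaki fragments, fell, with log2 fold changes of -1.82 after mIL-21 at 100 pM and -2.29 after 21h10 at 1 nM. Of 19 CDK inhibitors and other cell cycle repressors, 12, 14, 15 and 15 were higher and 3, 3, 3 and 2 lower in experiment 1. Cdkn2d, which encodes p19INK4d, rose by 1.27 and 2.86, and Cdkn1a, which encodes p21, by 0.39 and 2.08 on the log2 scale in those groups. In experiment 2, where most members did not pass the test, 27 to 31 of the 38 replication genes were lower, with medians of -0.75 to -0.46. Of the 56 further mitotic genes, 23 to 30 were lower and 1 to 5 higher there, with medians of -0.30 to -0.14. Of the 19 repressors, 5 to 7 were higher and 2 to 5 lower, with medians of 0.06 to 0.18. At 1 nM in experiment 1, 21h10 against mIL-21 left 9 of the 38 replication genes higher and 1 lower. The same comparison left 19 of the 56 further mitotic genes higher and 3 lower. Of all genes, 19.6% were higher and 18.1% lower, so that the share of replication genes that were higher was close to that of all genes. The genes named in this paragraph were picked after their values were seen.

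The genes outside the list whose log2 CPM followed the members' median most closely over the 10 libraries of experiment 1 were Nop58, a protein of small nucleolar ribonucleoproteins, with a Pearson correlation of 0.999, Zcchc10 with 0.998 and Orc2, a subunit of the origin recognition complex, with 0.998. In experiment 2 they were 2810417H13Rik with 0.973, Tma16 with 0.968 and Eri1 with 0.963. Libraries of a group count separately here, and in experiment 1 the correlation mostly reflects the gap between unstimulated and treated libraries.

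Members with and without TTTGAA in the promoter window overlapped in their changes. With mIL-21 at 100 pM the median log2 fold change was -0.55 over the 35 members with these letters and -0.41 over the 14 without them, and with 21h10 at 1 nM it was -0.49 and -0.39. In experiment 2 the medians were -0.13 and -0.20 after mIL-21 at 10 nM, while after 21h10 at 100 nM they were 0.016 and 0.0090. Mki67, with 2 copies, fell in experiment 1, as did Ccnb1, whose window held none, and the window of Cdc25b, which rose, held TTCGAA but not TTTGAA. The windows of Bub1 and Cenpm, also counted among the 14 without TTTGAA, held TTCGAA too. No test was made of these differences.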

How the data were processed

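RNA was extracted from CD8+ T cells, and 20 libraries made from its poly(A)-selected part were sequenced. Per the labels, reads were aligned to mm10 (GRCm38), and the submitters' processing notes name TopHat2 2.0.11, Bowtie2 2.2.6, SAMtools 0.1.8, bedtools 2.25.0 and edgeR, while the counter and the use of strand are not given in the sources used here. The deposited files hold raw read counts and RPKM values per transcript, both made by the authors, and the longest transcript of each symbol was used. Depth per library was 27072917 to 94070730 reads on genes, and the duplicates differed beyond sampling noise (chi-square per gene 2.66 to 35.5).

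The members and all gene lists were chosen with earlier results of these data known. Counts were fitted with edgeR 4.0.16 (R 4.3.3; TMM, filterByExpr with a minimum count of 10 and a total of 15, quasi-likelihood test, Benjamini-Hochberg adjustment over all genes), with the 10 libraries of an experiment in 1 fit per experiment and all 20 for the difference between experiments. The biological coefficient of variation was 4.32% and 8.80% in experiments 1 and 2. On simulated data the scripts were tested for each experiment. Genes named are 14 members fixed by name, shown in every library, and in each comparison the 3 members called with the largest rise and fall, with further members named by role or after their values were seen. Alternatives were DESeq2 1.42.0, library sizes from mapped reads, no low-count filter, the compared groups alone, the replicate number as a block, the most-read transcript, limma 3.58.1 on log2(RPKM + 1), and leaving out each library. Offsets centring each library on transcript GC content were added after seeing the data. Promoter windows came from RefSeq GRCm38.p6.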

Additional observations from a re-analysis of the deposited data

Results flagged for a closer look

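The effect of 21h10 against mIL-21 differed between 1 nM and 100 pM in experiment 1, by a test of the difference itself, for 11 mitosis genes. Each had a larger value at 1 nM, where 8.34% of all genes had a larger and 10.0% a smaller value. Leaving out 1 library gave 2 to 21 members. Only Ttk and Espl1 kept call and direction under every alternative. The log2 differences were 0.43 for Ttk, 0.41 for Espl1, 0.35 for Spc25, 0.28 for Top2a, 0.27 for Ncapg, 0.26 for Ncapg2, 0.26 for Aurkb, 0.23 for Kif4, 0.23 for Kif2c, 0.21 for Tpx2 and 0.20 for Bub1b.

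The response to cytokine differed between the experiments, again by a test of the difference itself, with 35 members higher and 8 lower in experiment 2. Of all genes tested, 31.2% were higher and 33.5% lower. Among the members followed in every library or named for their size, the log2 difference was 1.42 for Kif20b, 1.21 for Cenpf, 1.17 for Smc2, 0.96 for Ccnb1, 0.94 for Birc5, 0.63 for Prc1, 0.56 for Racgap1, 0.55 for Mki67, 0.55 for Plk1, 0.50 for Kif11, 0.40 for Tpx2, 0.37 for Ndc80 and 0.36 for Cdk1. It was -0.50 for Cdc25b, -0.47 for Aurkb, -0.45 for Ncapd2, -0.27 for Foxm1 and -0.21 for Bub1. The doses differed between the experiments, so dose and experiment cannot be told apart.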

How the results depend on the processing

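Of 437 member values past the threshold, 289 kept call and direction under every alternative. Leaving out 1 library gave 46 to 52 members called with mIL-21 and 51 to 53 with 21h10 at 100 pM against unstimulated cells, 50 to 55 and 44 to 49 at 1 nM, 17 to 28 and 19 to 31 at 10 nM, and 12 to 28 and 14 to 28 at 100 nM. Between the proteins it gave 3 to 25 at 100 pM, 12 to 29 at 1 nM, 0 to 0 at 10 nM and 2 to 5 at 100 nM. For the dose steps it gave 8 to 26 with mIL-21 and 15 to 29 with 21h10 in experiment 1 and 0 to 0 and 0 to 9 in experiment 2. It gave 0 to 1 for 21h10 at 100 pM against mIL-21 at 1 nM, 2 to 21 for the difference between doses and 36 to 43 for that between experiments. Library sizes from the mapped reads and limma on log2(RPKM + 1) gave, for mIL-21 and 21h10 against unstimulated cells, 41 and 45 (limma 41 and 43) at 10 nM and 38 and 40 (limma 36 and 40) at 100 nM. Between the proteins they gave 24 and 23 at 100 pM and 14 and 11 at 1 nM, and for the mIL-21 step in experiment 1 30 and 29. Limma gave 0 for the 21h10 step in experiment 2. With limma the split of higher to lower members was 0 to 23 for the proteins at 100 pM, 0 to 29 for the mIL-21 step and 11 to 8 for the 21h10 step in experiment 1. GC-centred offsets gave 28 between the proteins at 100 pM, 6 at 100 nM, 9 for the 21h10 step in experiment 2 and 24 for the difference between doses. The compared groups alone gave 32 between the proteins at 100 pM, 13 at 1 nM, 8 at 100 nM, 15 for mIL-21 at 10 nM, 16 for the 21h10 step in experiment 2 and 5 for the difference between doses. DESeq2 gave 4 for that step and 19 for the difference between doses. With the replicate number as a block, the difference between doses had 7 members, and other counts stayed within 1.5 times. Same-numbered libraries deviated together with correlations of -0.062 to 0.029 in experiment 1 and -0.17 to 0.23 in experiment 2, so the numbers were not taken as a pairing. With GC-centred offsets the sign turned for Nuf2 with mIL-21 at 100 pM (0.0041), Knstrn (0.0064) and Nusap1 (0.050) with mIL-21 at 1 nM, and Ttk (-0.079), Hmmr (-0.016) and Ect2 (-0.13) between experiments. With 21h10 at 100 nM it turned under mapped reads and limma for Ccna2 (-0.017 and -0.016), Ccnb2 (-0.085 and -0.084) and Racgap1 (-0.12 and -0.12), under mapped reads for Ube2c (-0.00093) and under limma for Incenp (-0.00043). The cause of these changes was not tested.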
